A study of Saccharomyces cerevisiae S288C with 32 samples.

Results

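Histone messenger RNA was followed through 32 poly(A) RNA-seq libraries of the budding yeast Saccharomyces cerevisiae, strain S288C. The 10 genes were chosen by name and are 10 of the 6084 annotated genes in the count table. They are HTA1 and HTA2 (histone H2A), HTB1 and HTB2 (H2B), HHT1 and HHT2 (H3), HHF1 and HHF2 (H4), HTZ1 (the variant H2A.Z) and HHO1 (the linker histone H1). The study set wild-type cells beside zuo1 and not5 strains, each treated with azetidine-2-carboxylic acid (AZC) or its sterile water vehicle. AZC is a proline analog that cells build into new proteins, and the dose was 2 mg/mL for 45 min at room temperature in YPD, given once a culture started at an OD600 of 0.1 had reached 0.4. Each of the 8 groups had 4 libraries. Flowcell 1 carried wild type with vehicle, wild type with AZC, zuo1 with vehicle and zuo1 with AZC. Flowcell 2 carried wild type and not5 with the same pair of treatments, so each mutant was set against the wild type of its own flowcell. Zuo1 is a chaperone that sits on ribosomes and helps new proteins fold, and Not5 belongs to the Ccr4-Not complex, which takes part in mRNA decay and monitors translation. By their titles, the 4 replicates in each group are biological ones.

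Histones wrap DNA into nucleosomes, each built from a pair of every core histone, H2A, H2B, H3 and H4. Yeast makes most core histone mRNA during S phase, when new DNA needs packing, and keeps it low at other times through the HIR complex and fast mRNA decay. Free histones are toxic to the cell, and the supply of H2A with H2B and of H3 with H4 is kept in proportion. HTZ1 and HHO1 are not part of the divergent core gene pairs: H2A.Z is swapped into nucleosomes near promoters by the SWR1 complex, and H1 binds the linker DNA between nucleosomes.

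The core genes lie in 4 divergent pairs, each pair reading outward from 1 shared intergenic region. HTB1 (chrIV:914317-914712) and HTA1 (chrIV:915530-915928) lie 817 bases apart, and HTA2 (chrII:235394-235792) and HTB2 (chrII:236492-236887) lie 699 bases apart. HHF1 (chrII:255373-255684) and HHT1 (chrII:256331-256741) lie 646 bases apart, and HHT2 (chrXIV:575640-576050) and HHF2 (chrXIV:576727-577038) lie 676 bases apart. HTZ1 (chrXV:303579-303983) and HHO1 (chrXVI:308828-309604) stand alone, and all coordinates are coding sequence in the R64 genome. The shared regions are shown because the results below turn on whether the pair members moved together. Each stretch was chosen to hold the histone activating element defined next, with 60 bases on either side of the outermost copies. Each stretch was read from the top strand of R64, 5′ to 3′, with the histone activating element TTCCNNNNNNTTC, to which the activator Spt10 binds, in capitals on whichever strand it lies.
HTB1-HTA1, chrIV:915054-915211: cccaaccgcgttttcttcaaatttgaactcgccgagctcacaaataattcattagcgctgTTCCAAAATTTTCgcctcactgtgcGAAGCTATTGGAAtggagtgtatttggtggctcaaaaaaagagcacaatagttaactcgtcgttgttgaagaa
HTA2-HTB2, chrII:236050-236182: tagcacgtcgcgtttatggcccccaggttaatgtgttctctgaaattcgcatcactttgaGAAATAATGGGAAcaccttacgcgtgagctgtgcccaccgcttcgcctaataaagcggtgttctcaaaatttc
HHF1-HHT1, chrII:255886-256018: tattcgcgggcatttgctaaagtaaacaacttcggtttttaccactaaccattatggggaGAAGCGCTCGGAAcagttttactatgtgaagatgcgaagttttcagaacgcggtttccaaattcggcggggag
HHT2-HHF2, chrXIV:576288-576420: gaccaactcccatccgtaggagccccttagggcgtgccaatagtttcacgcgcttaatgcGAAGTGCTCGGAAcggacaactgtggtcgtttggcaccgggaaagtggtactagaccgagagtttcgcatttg

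Searched on both strands in the 600 bases before the start codon, this element was present before all 8 core genes. The HTB1-HTA1 region held 2 copies and the other regions 1 each, and the windows before HTZ1 and HHO1 gave no match. Of 5958 such windows genome-wide, 15.9% held at least 1 copy and 1.39% held 2 or more. The MCB element ACGCGT, bound by the G1/S factor MBF, was found before HTA2 and HTB2 and in 6.36% of all windows. The SCB element CACGAAA, bound by the related factor SBF, was found before HTZ1 and in 8.36% of all windows. A match describes letters only and does not show that a factor binds there.

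Library totals ran from 22152108 to 31485394 counts on flowcell 1 and from 58229383 to 97010130 on flowcell 2, and the shallowest histone gene, HTZ1, still had at least 762 counts in every library. ZUO1 was at 0 counts in the zuo1 libraries apart from 3 counts in 1 of them, and NOT5 was at 0 in all not5 libraries. LEU2 had counts in the not5 libraries alone, between 1378 and 2311, so an effect of not5 and of carrying LEU2 cannot be told apart. Ribosomal RNA records took 13.8% and 11.8% of the counts in replicate 4 of not5 with vehicle and with AZC, against at most 3.87% elsewhere.

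In untreated wild type the H3 genes gave the most histone mRNA and HTZ1 the least. On a scale that divides counts by coding length (TPM computed from coding length, which allows genes to be compared), HHT2 stood at 1490 ± 76.3 (SD, n = 4) and HHT1 at 1351 ± 134 on flowcell 1. HHF2, HTA2, HHF1 and HTA1 followed at 1206, 1093, 983 and 849 on the same scale. HTB1 at 810 and HTB2 at 788 were the lowest core genes, and from HHF2 down to HTB2 each gene overlapped its neighbour in the order. HHO1 at 157 and HTZ1 at 95.1 lay clear below the core genes and apart from each other. On flowcell 2 the order was the same at the bottom, with HHT1 at 1410 and HHT2 at 1396 overlapping at the top. Together the 10 genes took between 0.320% and 0.355% of all counts in wild-type vehicle libraries of flowcell 1.

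**Figure D1:**
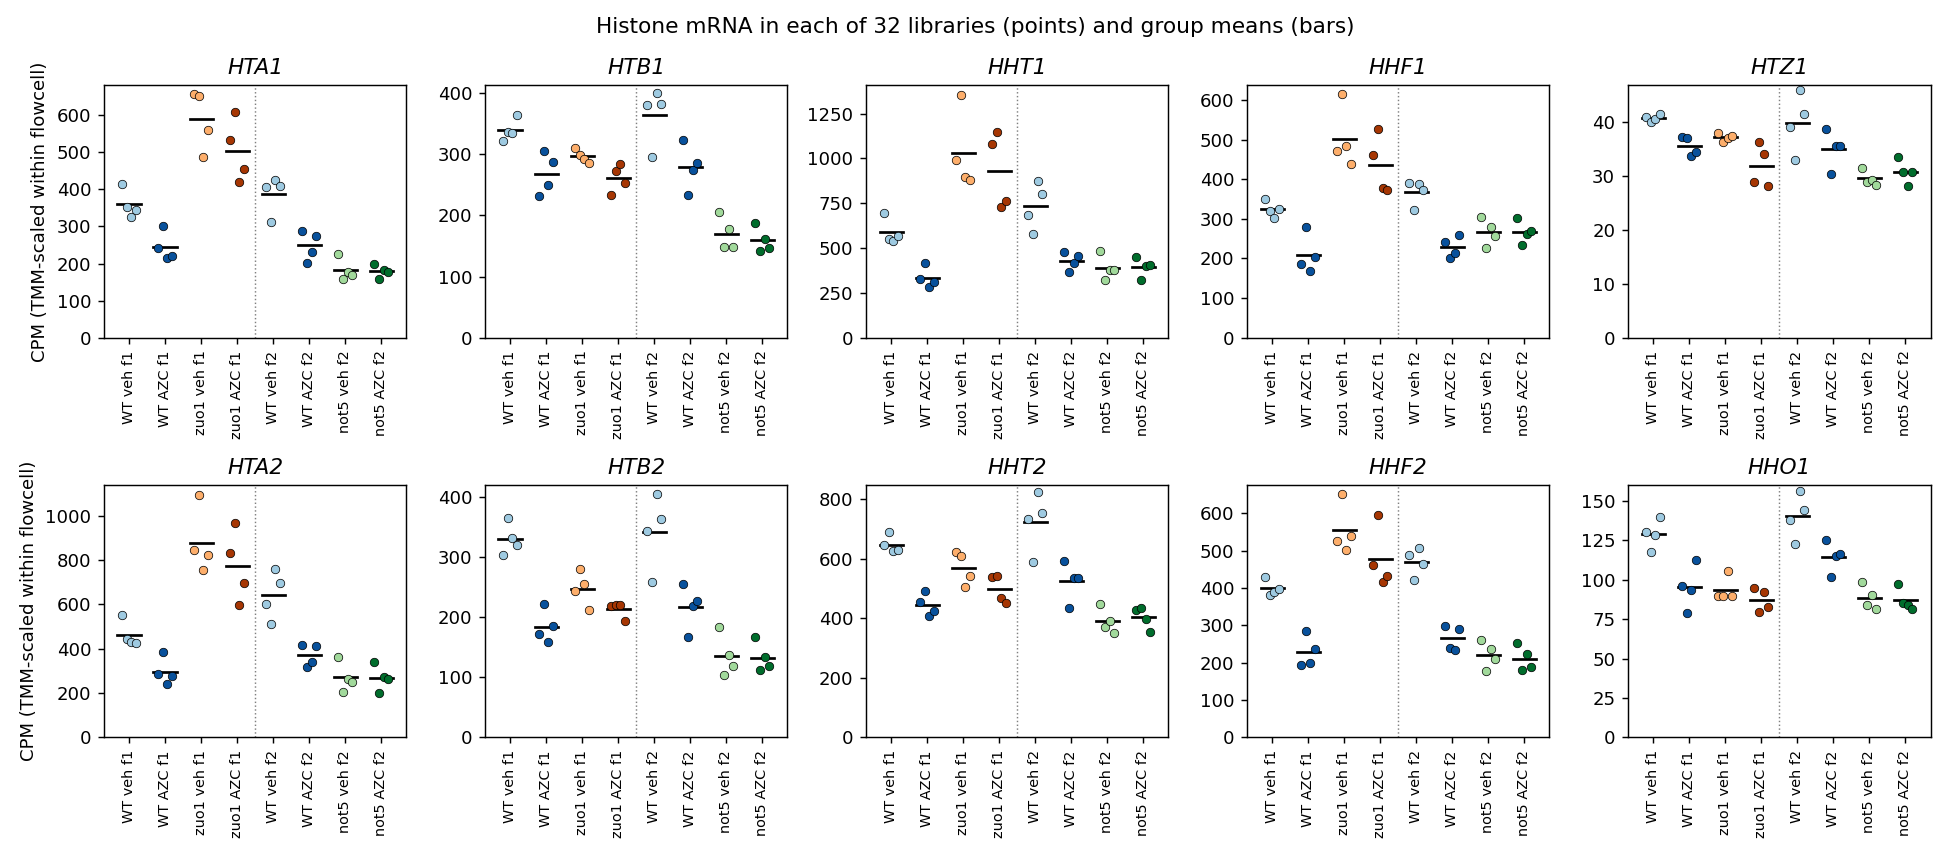
Level of each histone gene in CPM (counts relative to library size scaled by TMM; y axis, linear from 0) in each library (points) and as the group mean (bars), for the 8 groups (x axis; WT is wild type, veh is vehicle, f1 and f2 are the flowcells, with a dotted line between them). With vehicle, HTA1, HTA2, HHT1, HHF1 and HHF2 stand above wild type in zuo1, while HTB1, HTB2, HHT2, HTZ1 and HHO1 do not (HTB1, HHT2 and HTZ1 change sign by library totals). With AZC the means of HTB2 (213 against 184 CPM) and HHT2 (500 against 446 CPM) are also above wild type in zuo1, though neither was called by TMM. The not5 libraries with and without AZC overlap for every gene.

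AZC lowered histone mRNA in wild-type cells, and HTB2 fell more than HTB1, the other copy of H2B. All 10 passed the filter on low counts. On flowcell 1 edgeR called all 10 lower, and on flowcell 2 it called 9 lower, all but HTZ1. Of all genes tested, edgeR called 31.3% lower and 33.3% higher on flowcell 1, and 35.2% lower and 30.2% higher on flowcell 2. The median log2 fold change was −0.59 over the 10 genes against 0.02 over all 5782 genes tested on flowcell 1, and −0.65 against −0.03 over 5849 genes on flowcell 2. In these bulk samples, fewer cells in S phase and less histone mRNA per cell cannot be told apart.

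HTB2 and the H4 gene HHF2 were among the genes that fell most. With vehicle on flowcell 1, HTB2 was at 304, 366, 331 and 319 CPM (TMM-scaled), and with AZC at 173, 222, 159 and 185 CPM. Every AZC library lay below every vehicle library, and the log2 fold change was −0.84 ± 0.10 (SE), with an edgeR quasi-likelihood adjusted p of 8.87e-07. HHF2 went from 429, 381, 389 and 396 CPM to 194, 285, 199 and 237 CPM, again with no overlap, a log2 fold change of −0.80 ± 0.13 and an edgeR adjusted p of 2.81e-05. On flowcell 2 HHF2 changed by −0.82 ± 0.13 and HTB2 by −0.66 ± 0.18 on the log2 scale. HHT1, an H3 gene, changed by −0.82 ± 0.17 and −0.78 ± 0.14 on the 2 flowcells.

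HTB1 fell least among the core genes. On flowcell 1 it was at 322, 337, 335 and 365 CPM with vehicle and at 232, 305, 250 and 287 CPM with AZC. The groups did not overlap, but the drop was smaller than that of HTB2, at −0.34 ± 0.08 (edgeR adjusted p 0.00188), and on flowcell 2, where the groups overlapped, it was −0.38 ± 0.13 (edgeR adjusted p 0.0168). The flowcell 2 call for HTB1 was lost, at an adjusted p of up to 0.0599, when wild-type vehicle replicate 3 or wild-type AZC replicate 2 was left out. The variant gene HTZ1 moved least of all: it was at 40.9, 40.0, 40.7 and 41.6 CPM with vehicle and 37.3, 37.1, 33.7 and 34.4 CPM with AZC on flowcell 1. That is a log2 change of −0.19 ± 0.08 with an edgeR adjusted p of 0.0363, a call that 5 of the 8 single-library omissions ended (vehicle replicates 1, 3 and 4 and AZC replicates 3 and 4). On flowcell 2 HTZ1 changed by −0.18 ± 0.09 with an edgeR adjusted p of 0.0948. The linker gene HHO1 fell by 0.44 ± 0.09 and by 0.29 ± 0.09 on the log2 scale on the 2 flowcells.

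The remaining core genes lay between these. HTA1 and HTA2 changed by −0.55 ± 0.13 and −0.64 ± 0.16 on flowcell 1, and by −0.64 ± 0.13 and −0.79 ± 0.18 on flowcell 2. HHF1 changed by −0.63 ± 0.15 and −0.68 ± 0.11, and HHT2 by −0.54 ± 0.09 and −0.47 ± 0.11. The difference between the wild-type responses on the 2 flowcells was tested directly, and edgeR called 0 of the 10 genes, as did DESeq2 and limma-voom, with 0 genes at an unadjusted p under 0.05 in edgeR. The differences in log2 response ran from −0.11 for HTA2 to 0.22 for HTB2, where 0.809% of all genes were called higher and 0.499% lower.

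Copy shares within a library do not depend on how libraries are scaled. In wild type with AZC those of H2B and H4 were apart from vehicle on both flowcells, and that of H2A was not. HTB1 made up 51.5%, 48.0%, 50.3% and 53.3% of H2B mRNA with vehicle on flowcell 1 and 57.3%, 57.9%, 61.2% and 60.8% with AZC. On flowcell 2 its share was between 49.7% and 53.4% with vehicle and between 55.6% and 58.4% with AZC, so the groups were apart on both. HHT1 made up 50.2% ± 1.55 (SD, n = 4) of H3 mRNA with vehicle and 44.9% ± 1.06 with AZC on flowcell 2, without overlap. On flowcell 1 the same shares were 47.5% ± 3.07 and 42.7% ± 2.09, and there the groups overlapped. HHF1 made up 43.8% to 45.6% of H4 mRNA with vehicle and 45.9% to 49.6% with AZC on flowcell 1. Its share was 43.3% to 44.6% and 44.8% to 48.0% on flowcell 2. The HTA1 share of H2A mRNA overlapped on both, at 42.9% to 44.7% and 43.9% to 47.3% on flowcell 1. The ratio of HHT2 to HHF2, neighbours in 1 divergent pair, was 1.24 ± 0.10 with vehicle and 1.505 ± 0.21 with AZC on flowcell 1, and 1.17 ± 0.08 and 1.51 ± 0.17 on flowcell 2, where the groups did not overlap.

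**Figure D2:**
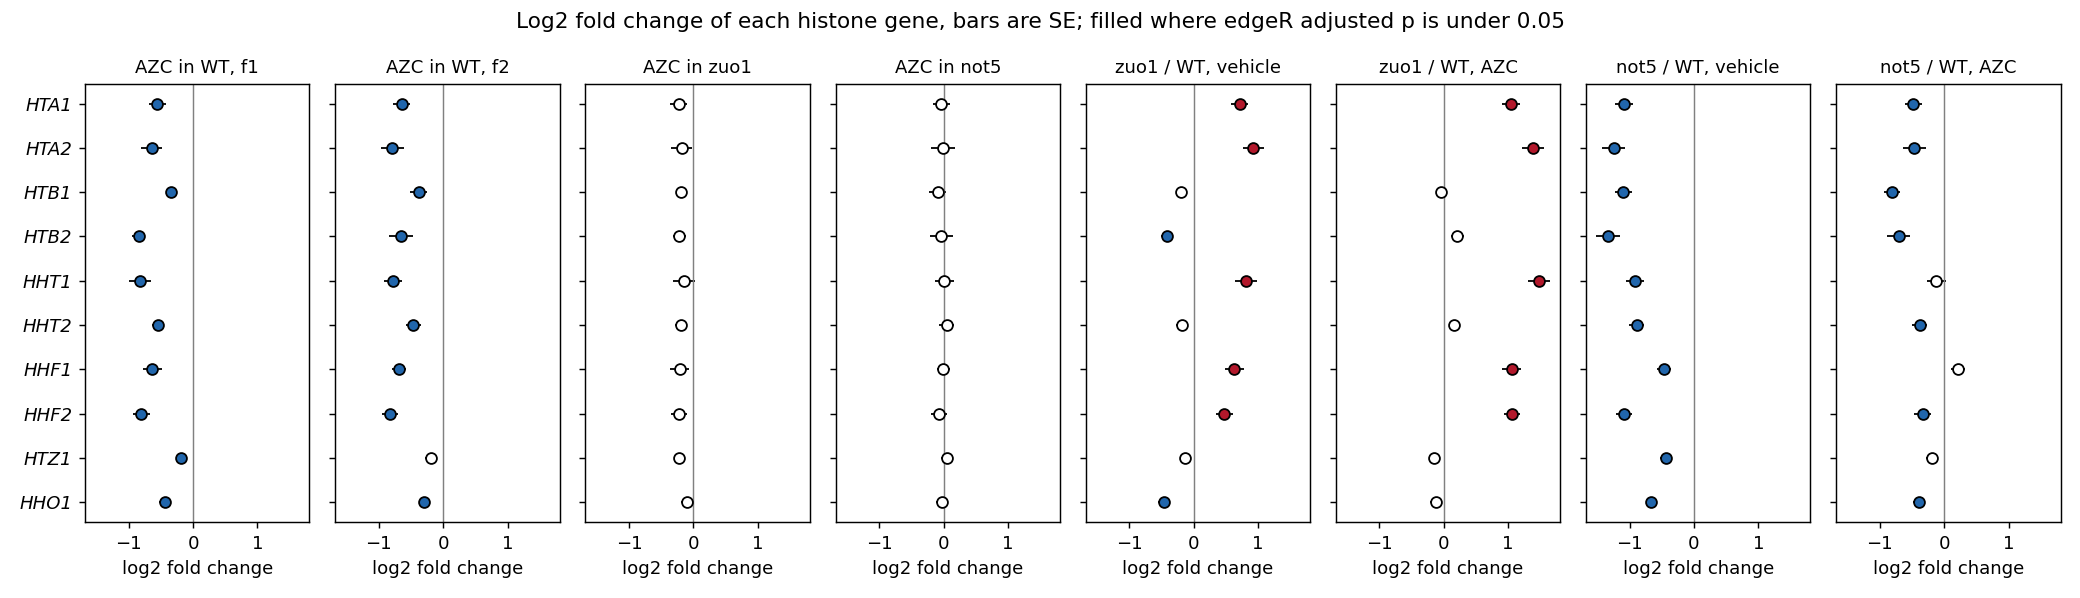
Log2 fold change (x axis) of each histone gene (y axis) in 8 comparisons, 1 panel each; points are edgeR estimates, bars are SE, and filled points have an adjusted p under 0.05 (blue lower, red higher). All 10 genes are filled blue for AZC in wild type on flowcell 1, none is filled for AZC in zuo1 or not5, and zuo1 against wild type holds red points for 5 genes.

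No histone gene was called with AZC in zuo1 or in not5. In zuo1 the 10 log2 changes ran from −0.22 to −0.10, where edgeR called 2.25% of all genes higher and 0.519% lower. Of the 10 genes, 4 had an unadjusted p under 0.05 in edgeR, 2 in DESeq2 and 2 in limma-voom, and none passed adjustment in any of the 3 tools. In not5 the log2 changes ran from −0.09 to 0.06, with 0 histone genes at an unadjusted p under 0.05 in edgeR, DESeq2 or limma-voom, and 0% of all genes called higher and 0% lower by edgeR, with 62 genes at an unadjusted p under 0.05, where DESeq2 called 1 higher and limma-voom 0. Replicate numbers paired the not5 libraries. With the number as a replicate block 0 genes were called over the table, and with a block within each genotype 75 were called higher and 1 lower, with 0 histone genes among them. For example, HHF2 in not5 was at 260, 177, 236 and 211 CPM with vehicle and at 252, 180, 222 and 190 CPM with AZC, groups that overlapped. HHF2 in zuo1 was at 525, 653, 502 and 540 CPM with vehicle and 462, 596, 417 and 431 CPM with AZC, which also overlapped.

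The difference in AZC response between each mutant and its wild type was tested as an interaction, which uses the same libraries as the separate comparisons. Between zuo1 and wild type, edgeR called 5 of 10 genes less lowered in zuo1, where it called 23.4% of all genes higher and 26.7% lower in this test. These were HHT1 (0.67 ± 0.24), HTB2 (0.62 ± 0.14), HHF2 (0.58 ± 0.18), HHT2 (0.35 ± 0.13) and HHO1 (0.34 ± 0.13, edgeR adjusted p 0.0456) on the log2 scale. HTB2 and HHF2 were called in all 16 fits that left out 1 library, HHT1 and HHT2 in 12 of 16, and HHO1 in 6 of 16. Scaled by library totals, 3 were called (HTB2, HHF2 and HHT1), and with a replicate block, alone or within each genotype, 8 were. Omissions that ended the HHT1 call were wild-type vehicle replicate 1, wild-type AZC replicate 3, zuo1 vehicle replicate 4 and zuo1 AZC replicate 1, and HHT2 lost its call without wild-type vehicle replicate 2 or the same last 3 libraries. HHO1 kept its call only without wild-type vehicle replicate 2, wild-type AZC replicate 4, zuo1 vehicle replicate 2 or 3, or zuo1 AZC replicate 2 or 4.

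Between not5 and wild type, edgeR called 6 of 10 genes less lowered in not5, where 26.5% of all genes were called higher and 22.7% lower in this test. HHT1 stood at 0.79 ± 0.20, HTA2 at 0.78 ± 0.25, HHF2 at 0.76 ± 0.18, HHF1 at 0.68 ± 0.15, HTA1 at 0.61 ± 0.19 and HHT2 at 0.51 ± 0.16. These 6 were called in all 16 fits that left out 1 library. HTB2 (0.63 ± 0.26, edgeR adjusted p 0.0570), HTB1, HTZ1 and HHO1 did not pass. With a replicate block within each genotype all 10 passed, and with the replicate number alone as a block 9 did, without HTZ1. By the rule of a correlation over 0.1 in each of 4 pairs, the numbers paired the not5 libraries. The wild-type libraries missed this rule in replicate 4 alone, with r of 0.101, 0.548, 0.456 and 0.070.

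Without AZC, the zuo1 strain carried more H2A, H4 and HHT1 mRNA than wild type but not more H2B or HHT2 mRNA, and at 3 of the 4 divergent pairs the partners moved apart. The edgeR test called 5 of 10 genes higher and 2 lower, against 30.1% of all genes higher and 29.1% lower. The median over the 10 genes was 0.17 on the log2 scale against 0.01 over all genes tested. Together the 10 genes took between 0.474% and 0.617% of all counts in zuo1 with vehicle, above every wild-type vehicle library of flowcell 1.

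HTA2 was at 550, 442, 431 and 426 CPM in wild type and at 844, 1095, 755 and 822 CPM in zuo1. All zuo1 libraries lay above all wild-type ones, with a log2 fold change of 0.93 ± 0.16 and an edgeR adjusted p of 0.000124. Its divergent partner HTB2 went the other way, from 304, 366, 331 and 319 CPM to 244, 281, 255 and 212 CPM, at −0.41 ± 0.10 (edgeR adjusted p 0.00184). At the second H2A-H2B locus HTA1 rose from 414, 352, 327 and 345 CPM to 657, 651, 487 and 560 CPM, a log2 change of 0.71 ± 0.13 (edgeR adjusted p 0.000202). Its partner HTB1 was at 310, 298, 292 and 286 CPM in zuo1, all below the wild-type range that began at 322 CPM, with a change of −0.20 ± 0.08 and an edgeR adjusted p of 0.0543. Replicate numbers paired the libraries in this comparison, and with the number as a block HTB1 passed at −0.19 with an edgeR adjusted p of 0.0375.

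Of the H3 genes, HHT1 rose and HHT2 did not. HHT1 was at 693, 553, 542 and 568 CPM in wild type and at 989, 1357, 898 and 882 CPM in zuo1, a log2 change of 0.81 ± 0.17 (edgeR adjusted p 0.000588) without overlap. HHT2 was at 647, 691, 626 and 630 CPM in wild type and at 622, 610, 506 and 543 CPM in zuo1. Here too all zuo1 libraries were lower, at −0.18 ± 0.09 with an edgeR adjusted p of 0.0843, and at −0.19 with an adjusted p of 0.0186 under the replicate block. Both H4 genes rose: HHF1 by a log2 of 0.63 ± 0.15 and HHF2 by 0.48 ± 0.13 (edgeR adjusted p 0.00142 and 0.00394). HHO1 was lower at −0.46 ± 0.09 and HTZ1 changed by −0.13 ± 0.08, which did not pass.

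Under AZC the same 5 genes were the higher ones in zuo1, where 34% of all genes were called higher and 35.4% lower. HHT1 stood at 1.48 ± 0.17, HTA2 at 1.38 ± 0.16, HHF2 at 1.06 ± 0.13, HHF1 at 1.05 ± 0.15 and HTA1 at 1.04 ± 0.13, each with the groups apart. This comparison shares its zuo1 and wild-type strains, but not its libraries, with the one in vehicle. None of the 10 was called lower, and HTB1 (−0.04 ± 0.08), HTB2 (0.21 ± 0.10) and HHT2 (0.17 ± 0.09) did not pass. HTB2 and HHT2 were called higher by library totals (0.39 and 0.34), which gave 7 higher genes in all.

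A pair of technical values stood beside these changes. Scaled by library totals in place of TMM, the median of all genes in zuo1 against wild type with vehicle moved to 0.25 and the calls over all genes from 1743 higher and 1685 lower to 2892 higher and 789 lower, and under AZC the median moved to 0.17 with 2575 higher and 1458 lower in place of 1964 and 2044. HTB1, HHT2 and HTZ1 changed sign under that scaling in vehicle, and relative to the moved median they stood at −0.21, −0.20 and −0.14. The lower calls of HTB2 (−0.17) and HHO1 (−0.22) were lost, and relative to the moved median these stood at −0.42 and −0.47. Under AZC the sign of HTB1, HTZ1 and HHO1 changed, and HTB2 and HHT2 joined the higher genes, at 0.22 and 0.17 relative to the moved median. The 5 higher genes stayed called higher in both comparisons. Coding length also moved with the comparison: the 442 tested genes of 300 to 450 coding bases, a range chosen around the core histone genes after the values were seen, had a median log2 fold change of 0.55 in zuo1 with vehicle and of 0.40 with AZC. The core histone genes have 312 to 411 coding bases. For AZC in wild type the median over genes of 300 to 450 bases was 0.02 on flowcell 1 and −0.17 on flowcell 2. In the difference in AZC response it was −0.13 for zuo1 and 0.21 for not5. The part of length in any of these changes was not tested.

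**Figure D3:**
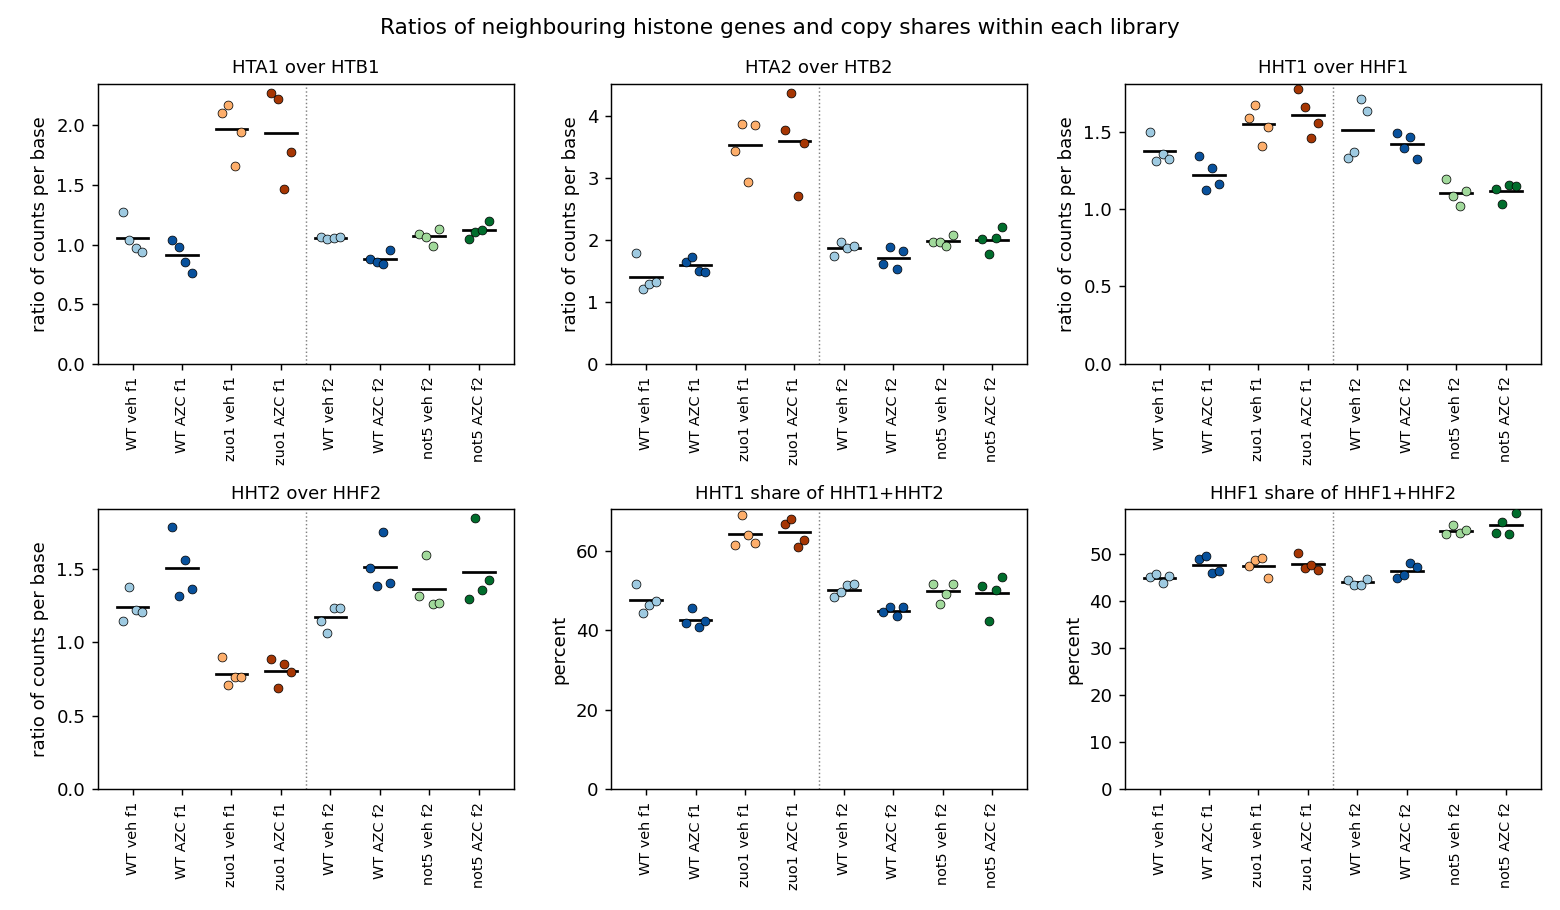
Ratio of counts per base between divergent partners (first 4 panels) and share of 1 copy in the summed counts of an H3 or H4 pair (last 2 panels, percent) in each library (points) and as the group mean (bars), by group (x axis; dotted line between flowcells). HTA1 over HTB1 and HTA2 over HTB2 are higher, and HHT2 over HHF2 lower, in all 8 zuo1 libraries than in any wild-type library, and the HHF1 share is highest in not5.

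Ratios taken within a library are free of scaling, and with vehicle they set zuo1 apart from wild type at 3 of the 4 loci. HTA1 per HTB1 was 1.27, 1.03, 0.969 and 0.939 in wild type with vehicle and 2.11, 2.17, 1.66 and 1.94 in zuo1 with vehicle. HTA2 per HTB2 was 1.80, 1.20, 1.29 and 1.32 in wild type and 3.44, 3.87, 2.94 and 3.85 in zuo1. Summed over both loci, H2A mRNA per H2B mRNA was 1.22 ± 0.20 in wild type and 2.67 ± 0.31 in zuo1, and with AZC 1.18 ± 0.13 and 2.68 ± 0.52. HHT2 per HHF2 fell below 1: it was 1.24 ± 0.10 in wild type and 0.784 ± 0.08 in zuo1 with vehicle, and 0.806 ± 0.09 in zuo1 with AZC. HHT1 per HHF1, the locus where both genes rose, went from 1.37 ± 0.09 to 1.55 ± 0.11 with vehicle, and its groups overlapped. With AZC this ratio was 1.22 ± 0.10 in wild type and 1.61 ± 0.14 in zuo1, without overlap.

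The 2 H3 copies changed rank in zuo1. HHT1 made up between 44.5% and 51.7% of H3 mRNA in wild type with vehicle and between 61.4% and 69.0% in zuo1, and between 60.9% and 67.9% in zuo1 with AZC. On the scale per coding length HHT1 was the top histone gene in zuo1 with vehicle at 2407, followed by HTA2 at 2111, while HTB1 at 720 and HTB2 at 603 stood below all other core genes. Total H3 per H4 was 1.30 ± 0.04 in wild type and 1.15 ± 0.07 in zuo1, without overlap in vehicle, and 1.37 ± 0.16 and 1.19 ± 0.09 with AZC, with overlap. The summed H2A and H2B mRNA per H3 and H4 mRNA was 0.704 ± 0.01 in wild type and 0.696 ± 0.03 in zuo1 with vehicle, which overlapped. With AZC it was 0.757 ± 0.003 in wild type and 0.690 ± 0.03 in zuo1, without overlap. The share of HTZ1 among H2A-type mRNA with vehicle was 4.70% ± 0.48 in wild type and 2.48% ± 0.36 in zuo1, without overlap.

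Scaled by TMM, the not5 strain carried less mRNA of all 10 histone genes than wild type without AZC, and HHF1 was lowered less than the other core genes. By library totals 7 of the 10 stayed called lower. The edgeR test called 10 of 10 lower, against 40.9% of all genes lower and 41.2% higher, with a median of −1.0 over the 10 genes against 0.00 over all genes tested. HTB2 was at 343, 259, 405 and 363 CPM in wild type on flowcell 2 and at 183, 104, 138 and 119 CPM in not5, a log2 change of −1.33 ± 0.19 (edgeR adjusted p 6.03e-06) without overlap. HTA2 stood at −1.25 ± 0.18, HTB1 at −1.10 ± 0.13, and HTA1 and HHF2 at −1.09 ± 0.13 each. HHT1 and HHT2 stood at −0.91 ± 0.14 and −0.89 ± 0.11.

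HHF1 was at 391, 322, 387 and 372 CPM in wild type and at 306, 226, 280 and 257 CPM in not5. The groups did not overlap, and the log2 change of −0.46 ± 0.11 (edgeR adjusted p 0.000755) was smaller than that of its sister copy HHF2. HHF2 itself went from 488, 422, 508 and 463 CPM to 260, 177, 236 and 211 CPM. HHF1 made up between 43.3% and 44.6% of H4 mRNA in wild type and between 54.0% and 56.0% in not5 with vehicle, and between 54.2% and 58.6% in not5 with AZC. HHO1 and HTZ1 fell by 0.66 ± 0.09 and by 0.43 ± 0.09 on the log2 scale. Every one of these calls held in all 8 fits that left out 1 library.

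With AZC, not5 and wild type lay closer, with a median over the 10 genes of −0.39 against 0.02 over all genes tested. The edgeR test called 7 of 10 lower in not5, against 38.7% of all genes lower and 40.7% higher. HTB1 at −0.81 ± 0.13, with the groups apart, and HTB2 at −0.71 ± 0.18, with overlap, were furthest from wild type, and HTA1, HTA2, HHO1, HHT2 and HHF2 followed between −0.48 and −0.33. HHF1 at 0.22 ± 0.11 and HHT1 at −0.12 ± 0.14 did not pass. The calls for HTA2 and HHF2 were each lost in 4 of 8 fits that left out 1 library (wild-type AZC replicate 1 or 4, not5 AZC replicate 2 or 4).

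These not5 values depend on scaling. By library totals the median of all genes in not5 against wild type moved to 0.53 with vehicle and 0.55 with AZC, and the calls over all genes became 3656 higher and 1141 lower with vehicle (2412 and 2391 by TMM) and 3777 and 929 with AZC (2379 and 2262 by TMM). With vehicle, HHF1 and HTZ1 then stood at 0.07 and 0.10, and relative to the moved median at −0.46 and −0.43, and the call of HHO1 was lost at −0.13. The other 7 stayed called lower. With AZC, 7 of the 10 genes changed sign, and 3 were called, all of them higher (HHF1, HHT1 and HTZ1), while the lower calls of HTB1 (−0.27) and HTB2 (−0.17) were lost. Relative to the moved median HTB1 and HTB2 stood at −0.82 and −0.71, close to their TMM values, and HHF1, HHT1 and HTZ1 stood at 0.21, −0.13 and −0.20. On the scale per coding length HTB2 was at 682 ± 84.3 in wild type and 449 ± 111 in not5 with vehicle, but HHF1 was at 937 ± 76.4 and 1120 ± 139. Together the 10 genes took between 0.306% and 0.372% of all counts in wild type and between 0.219% and 0.320% in not5 with vehicle, which overlapped.

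Within-library ratios, which scaling cannot move, also set not5 apart. Summed H2A and H2B mRNA per H3 and H4 mRNA was 0.694, 0.662, 0.715 and 0.719 in wild type and 0.602, 0.520, 0.541 and 0.526 in not5 with vehicle, without overlap. With AZC it was 0.717 ± 0.02 in wild type and 0.534 ± 0.04 in not5. HHT1 per HHF1 was 1.51 ± 0.19 in wild type and 1.104 ± 0.07 in not5 with vehicle, again apart. HHT2 per HHF2 was 1.17 ± 0.08 and 1.36 ± 0.16 with vehicle, narrowly apart, and its groups overlapped with AZC. At the H2A-H2B loci the groups overlapped with vehicle: HTA1 per HTB1 was 1.06 ± 0.01 and 1.07 ± 0.06, and HTA2 per HTB2 was 1.87 ± 0.09 and 1.98 ± 0.07. With AZC HTA1 per HTB1 was 0.882 ± 0.05 in wild type and 1.12 ± 0.06 in not5, without overlap, while HTA2 per HTB2 overlapped. Summed over both loci, H2A per H2B mRNA with AZC was 1.24 ± 0.08 and 1.52 ± 0.10, without overlap. With vehicle HTZ1 made up 3.68% ± 0.09 of H2A-type mRNA in wild type and 6.17% ± 0.91 in not5, again without overlap.

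CSE4, which encodes the histone H3 variant of centromeres, is not one of the 10, and in not5 with vehicle, by TMM, it was higher where the 10 were lower. It was at 20.1, 16.5, 18.3 and 18.9 CPM in wild type with vehicle on flowcell 1 and at 43.9, 39.1, 34.0 and 39.3 CPM in zuo1, a log2 change of 1.08 ± 0.09 (edgeR adjusted p 7.61e-08). On flowcell 2 it was at 21.7, 16.1, 21.7 and 20.2 CPM in wild type and at 55.8, 52.3, 50.8 and 49.99 CPM in not5, a change of 1.39 ± 0.09 while all 10 histone genes were lower. With AZC it fell in wild type by 0.67 ± 0.10 and by 0.44 ± 0.09 on the log2 scale, and it was not called in either mutant. The interactions of 0.49 ± 0.13 for zuo1 and 0.41 ± 0.13 for not5 passed in edgeR, at adjusted p-values of 0.00491 and 0.0175. PSH1, the ubiquitin ligase that removes surplus Cse4 protein, fell in wild type with AZC by 0.86 ± 0.08 and 0.71 ± 0.07 and was higher in not5 with vehicle, at 0.75 ± 0.07. In zuo1 with vehicle PSH1 was not called, and of the 3 surveillance genes RAD53, a checkpoint kinase that also directs the removal of surplus histones, alone was called, at −0.19 ± 0.07. By library totals none of the 3 was lower there and 1 was higher.

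Of the 6 genes of the HIR complex and its partners, which repress histone genes outside S phase, AZC lowered 4 in wild type on flowcell 1 and 3 on flowcell 2 and raised none. Over all genes, 31.3% and 35.2% were lower and 33.3% and 30.2% higher in the same comparisons. Against wild type with vehicle, 30.1% of all genes were higher and 29.1% lower in zuo1, and 41.2% and 40.9% in not5. The counts of this and the following lists are to be read against the shares of their own comparison. HIR3 fell by 0.36 ± 0.07 and 0.36 ± 0.09, HIR1 by 0.31 ± 0.07 and 0.29 ± 0.06, and RTT106, a chaperone recruited by HIR, by 0.29 ± 0.06 and 0.38 ± 0.10. In zuo1 with vehicle 2 of the 6 were lower, the chaperone gene ASF1 (−0.38 ± 0.09) and HIR2 (−0.29 ± 0.06), and by library totals none was lower and 1 higher. In not5 with vehicle 4 were lower, among them ASF1 (−0.66 ± 0.09), HIR3 (−0.64 ± 0.09) and RTT106 (−0.63 ± 0.10), and 2 were higher, HIR1 (0.57 ± 0.06) and HPC2 (0.21 ± 0.05). The list median of −0.43 in not5 turned to 0.09 by library totals, with none lower and 3 higher, and was −0.43 relative to the moved median. With AZC 0 of the 6 were called in either mutant.

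The 6 genes for activation of histone genes split. With AZC in wild type 3 were higher and 3 lower on flowcell 1, and 2 higher and 2 lower on flowcell 2. SPT21, whose product works with Spt10 at histone promoters, fell with AZC in wild type by 0.72 ± 0.08 and 0.72 ± 0.17 and in zuo1 by 0.38 ± 0.08, and SPT10 fell in wild type by 0.20 ± 0.08 and 0.25 ± 0.05. YTA7, a chromatin boundary ATPase, rose in wild type with AZC by 0.69 ± 0.08 and 0.47 ± 0.08. MBP1, the DNA-binding subunit of MBF, rose as well, by 0.41 ± 0.08 and 0.17 ± 0.06. On flowcell 1 SWI4, the DNA-binding subunit of SBF, was also higher and SWI6, the subunit that SBF and MBF share, was also lower. In zuo1 with vehicle 3 of the 6 were lower, SPT10 (−0.31 ± 0.08), SPT21 (−0.29 ± 0.08) and SWI6, and 1 was higher, SWI4 (0.33 ± 0.09). In not5 with vehicle MBP1 was higher (0.44 ± 0.06) and 4 of the 6 were lower, led by SWI6 (−0.56 ± 0.10). By library totals none of the 6 was lower in either mutant with vehicle and 3 were higher.

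Among 13 histone chaperone genes, AZC lowered 5 and raised 1 in wild type on flowcell 1, and lowered 6 and raised 1 on flowcell 2, lower counts not far above the shares over all genes. HIF1, a nuclear H3-H4 chaperone, fell by 0.82 ± 0.10 and 0.59 ± 0.10, and RLF2, the large subunit of the replication-coupled assembly factor CAF-1, by 0.74 ± 0.08 and 0.67 ± 0.13. NHP6B, an HMG protein that works with FACT, rose by 0.55 ± 0.09 and 0.30 ± 0.08. In zuo1 with vehicle 5 were higher, among them NHP6B (0.97 ± 0.09) and CHZ1 (0.88 ± 0.16), an H2A.Z chaperone, and 7 were lower, led by the H2A-H2B chaperone NAP1 (−0.58 ± 0.09). In not5 with vehicle 3 were higher and 8 lower, the latter led by NHP6A (−1.85 ± 0.08), SPT6 (−1.23 ± 0.06) and the FACT subunit SPT16 (−0.79 ± 0.08). By library totals these counts were 5 higher and 2 lower in zuo1 and 6 higher and 3 lower in not5.

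Of the 12 SWR1 complex genes, 5 were higher and 4 lower with AZC in wild type on flowcell 1, and 4 and 4 on flowcell 2, near the shares over all genes. SWR1 itself, the ATPase that deposits H2A.Z, rose by 0.60 ± 0.10 and 0.47 ± 0.07, and SWC7 fell by 1.08 ± 0.27 and 1.14 ± 0.27. In zuo1 with vehicle 4 were higher and 1 lower (7 and 0 by library totals), and in not5 with vehicle 6 were higher and 5 lower (10 and 1 by library totals), with YAF9 (1.58 ± 0.05), ARP6 (1.42 ± 0.05) and VPS71 (1.13 ± 0.07) the most raised. The TMM counts in not5 were not far above the shares over all genes, 41.2% higher and 40.9% lower. HAT1, which acetylates new H4 before assembly, was higher with AZC in wild type (0.51 ± 0.13 and 0.26 ± 0.05), in zuo1 with vehicle (0.33 ± 0.13) and in not5 with vehicle (1.38 ± 0.05), and its partner HAT2 was higher in not5 at 0.89 ± 0.06. In zuo1 with AZC, 1 gene of all these lists, SPT21, was called, and in not5 with AZC none was, in the fit without a replicate block.

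Genes that peak at the G1/S boundary, shortly before the histone genes, fell with the histone genes when wild type met AZC. Of 26 such genes, 20 were lower and 4 higher on flowcell 1 (median −0.46) and 19 lower and 3 higher on flowcell 2 (median −0.51), where 31.3% and 35.2% of all genes were lower and 33.3% and 30.2% higher. The nucleotide hydrolase gene DUT1 fell by 1.20 ± 0.14 and 0.92 ± 0.11, the S phase cyclin gene CLB6 by 1.17 ± 0.12 and 0.93 ± 0.25, and the G1 cyclin gene CLN2 by 1.09 ± 0.08 and 0.94 ± 0.14. Of 15 G2/M genes, 10 were higher and 2 lower on flowcell 1 (median 0.42), and 8 higher and 2 lower on flowcell 2 (median 0.20). HST3, a histone deacetylase gene, was up by 1.34 ± 0.12 and 0.86 ± 0.08, while the 2 lower genes were the cyclin genes CLB2 and CLB1 on both flowcells. The 14 M/G1 genes gave 6 higher and 3 lower, and 6 higher and 2 lower, with SIC1, the inhibitor of S phase cyclin kinase, up by 1.38 ± 0.09 and 0.82 ± 0.06. The part of cell cycle position in the histone decrease was not tested.

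**Figure D4:**
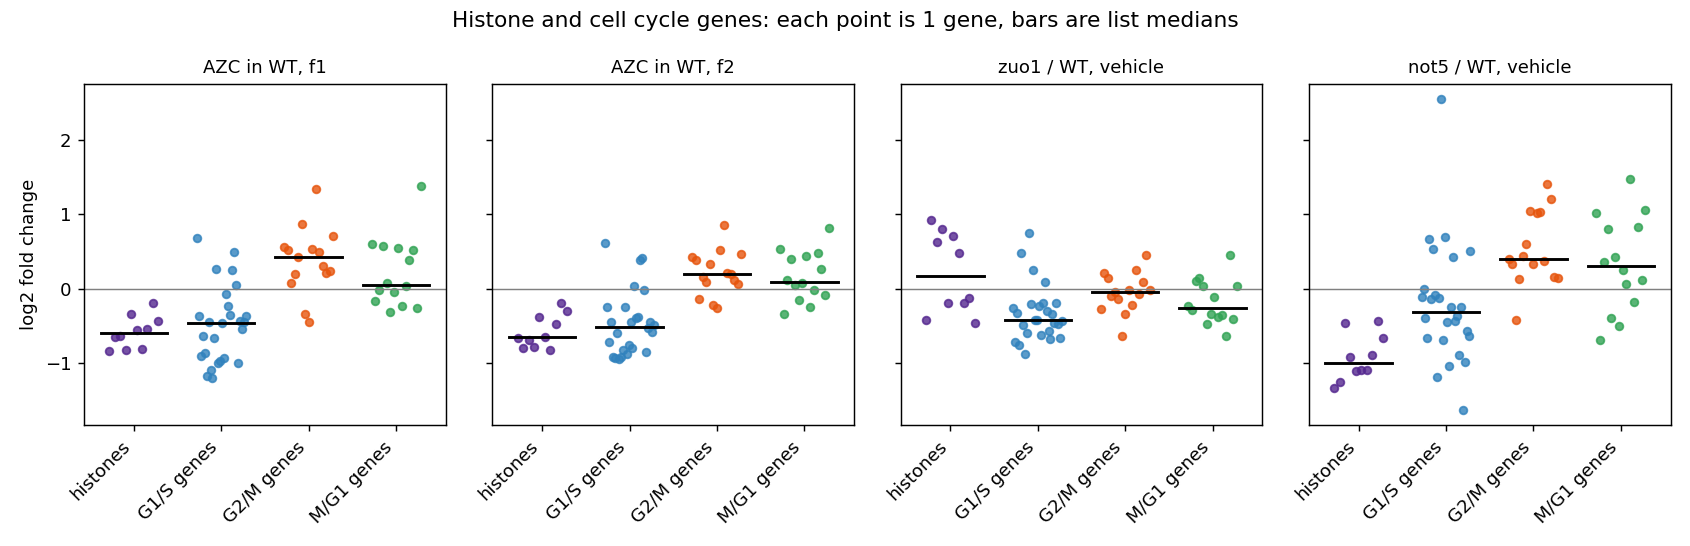
Log2 fold change (y axis) of each gene (points) in the histone set, the G1/S, the G2/M and the M/G1 lists (x axis), with the list median (bars), in 4 comparisons. Histone and G1/S genes are both mostly below 0 with AZC in wild type; in zuo1 against wild type the G1/S median is −0.42 while the histone points divide into a group above 0 and a group below it. The values are scaled by TMM; the G1/S median in not5 turned positive by library totals.

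In zuo1 with vehicle most G1/S genes were lower while 5 histone genes were higher, where 30.1% of all genes were higher and 29.1% lower. Of the 26 G1/S genes 20 were lower and 3 higher (median −0.42; by library totals 9 lower and 4 higher, with a median of −0.18), with the G1 cyclin gene CLN1 at −0.88 ± 0.07 and the DNA ligase gene CDC9 at −0.76 ± 0.08, and DUT1 higher at 0.74 ± 0.13. The G2/M list had 3 higher and 3 lower (6 and 1 by library totals), and the M/G1 list 1 higher and 8 lower, a balance that turned to 4 and 2 by library totals. In not5 with vehicle 14 G1/S genes were lower and 6 higher (median −0.31), a median that turned to 0.22 by library totals, with 3 lower and 11 higher, and was −0.31 relative to the moved median. They included the ribonucleotide reductase gene RNR1 at −1.62 ± 0.24 and the G1 cyclin gene PCL1 at 2.54 ± 0.11. There 12 of 15 G2/M genes were higher and 1 lower (median 0.40), and 8 of 14 M/G1 genes were higher and 3 lower, against 14 and 0, and 11 and 0, by library totals. By TMM, 41.2% of all genes were higher and 40.9% lower in not5 with vehicle. With AZC in zuo1 3 G1/S genes were lower, the cohesin gene MCD1, the sliding clamp gene POL30 and CLN2, and 2 M/G1 genes were higher, SIC1 (0.44 ± 0.09) and ASH1 (0.26 ± 0.07), while in not5 none was called. In the test of the difference in response, 16 of the 26 G1/S genes were called higher for zuo1 and 3 lower. Over all genes this test called 23.4% higher and 26.7% lower. For not5 it called 7 G1/S genes higher and 3 lower, where 26.5% of all genes were higher and 22.7% lower. The count of higher G1/S genes for not5 was thus near the share over all genes.

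Across the 32 libraries, with group differences kept, the 10 genes fell into 2 sets by their correlations. These correlations use log2 CPM with each flowcell's mean removed; the libraries share batches and group differences, and the values are a description. HTA1, HTA2, HHT1, HHF1 and HHF2 were close to each other, with r of 0.99 between HTA1 and HTA2 and 0.97 between HHT1 and HTA2. HTB1, HTB2, HHT2, HHO1 and HTZ1 formed the other set, with r of 0.96 between HTB2 and HHT2 and 0.95 between HTB1 and HTB2. Divergent partners were less alike than that: r was 0.64 between HTA1 and HTB1 and 0.66 between HTA2 and HTB2. HHT1 and HHF1, the partners that moved together in zuo1, had r of 0.95, and HHT2 and HHF2 had 0.77. With each group's mean removed in place of the flowcell's, the second set did not hold together: HHT2 had r of 0.81 with HTA1, 0.75 with HTB2 and 0.63 with HTB1, and HHO1 had r of 0.28 with HHT2, 0.40 with HTZ1 and 0.46 with HTB2. Within groups HTA2 still had r of 0.92 with HTA1 and 0.95 with HHT1.

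The genes most like the mean of the 8 core histone genes, among 5701 others over the same 32 libraries, were RPO26 (r of 0.97), a subunit shared by the nuclear RNA polymerases, the initiation factor gene TIF11 (0.96), the ribosomal protein gene RPS19A (0.96), BCP1 (0.96) and RBG1 (0.96). HTZ1 was most like ALG7 (0.84), an enzyme of protein glycosylation, SEC22 (0.83), a membrane traffic gene, and the ribosomal protein gene RPS15 (0.80). HHO1 was most like SIM1 (0.95), the sphingolipid synthesis gene LCB1 (0.95) and the threonine synthesis gene THR1 (0.94).

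The copy values rest on how reads shared by near-identical genes were divided, which Salmon estimates. HHF1 and HHF2 differ at 8 of 312 coding bases and in no residue, and 40.8% of the 31-base words of HHF1 occur in HHF2. HHT1 and HHT2 differ at 28 of 411 bases and in no residue, with 24.4% of such words shared. HTA1 and HTA2 differ at 25 of 399 bases and in 2 residues, with 12.5% shared, and HTB1 and HTB2 at 48 of 396 bases and in 4 residues, with 1.37% shared. With the copies of each histone summed, HHF1 with HHF2 in not5 under AZC stood at −0.05, where HHF1 alone stood at 0.22, and HHT1 with HHT2 in zuo1 with vehicle stood at 0.37 with an edgeR adjusted p of 0.0234. The kit does not mark strand.

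AZC replaces proline, and the proline share of the 4 core histones and H2A.Z lies below the median of yeast proteins, while that of H1 lies above it. The translated coding sequences hold 5 prolines in each H2A, H2B and H3 protein, 1 in H4, 3 in H2A.Z and 15 in H1. H4 has 1 proline in 103 residues (0.971%), where the median over 5961 coding genes is 4.17% and 1.41% of them encode a lower share than H4. H1 has 5.81%. The HHF1 and HHF2 mRNAs were among those lowered by AZC in wild type, as were those of the other core histones. The part of proline share in these changes was not tested.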

How the data were processed

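The 32 libraries were poly(A) RNA-seq, 4 in each of 8 groups, and the deposited table holds expected counts per transcript record. Per the submitters' processing notes, FastQC 0.12.1 and Salmon 1.10.2 were used with the R64 genome; other settings were not given in the sources used here. Of 6085 records, 6084 matched the R64 annotation by transcript accession; the unmatched record, at most 0.0179% of a library, was left out. As deposited by the authors, 79.1% of the estimated counts are not whole, and they were rounded before testing. Every column belongs to a listed sample.

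Each flowcell was fitted on its own with edgeR 4.0.16 (R 4.3.3): filterByExpr, TMM factors, and a robust quasi-likelihood fit of group alone; p-values were adjusted by Benjamini-Hochberg over all genes tested, with a threshold of 0.05. The wild-type response was compared between flowcells in a fit of those 16 libraries. Fold changes are on the log2 scale. CPM values use each flowcell's TMM factors, and log2 CPM for correlations has a prior count of 2. TPM was computed from the counts and coding lengths. Copy shares, ratios, levels and correlations are descriptions with no test. Totals ran from 22152108 to 97010130 counts. HTZ1 had as few as 762 counts in a library, and the other histone genes at least 1852. The fit was tested on simulated counts first.

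Alternatives were RLE size factors, library totals, no filter on low counts, DESeq2 1.42.0, limma-voom (limma 3.58.1), a fit over all 32 libraries, summed paralog pairs, a replicate block, a replicate block within each genotype, and leaving out each library. Replicate numbers are those of the labels, which do not say that a number marks a shared culture or day. Pairing was judged by the correlation of same-numbered deviations, over 0.1 in each of 4 pairs. By this rule the numbers paired the libraries for AZC in not5 (0.209 to 0.855) and for zuo1 against wild type with vehicle (0.127 to 0.278) only. For AZC in wild type the rule was narrowly missed, at 0.09996 to 0.361 on flowcell 1 and 0.070 to 0.548 on flowcell 2.

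Windows of 600 bases and coding sequences were read from the R64 genome, and translated, in place of the RefSeq promoter and protein tables named in the plan; plots used matplotlib 3.10.9. The members and gene lists were chosen with earlier results of these data known. All 10 histone genes are named; of each list, up to 3 called genes with the largest change in each direction could be named, with CSE4 always, and likeness names the 5 or 3 genes of highest r.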

Additional observations from a re-analysis of the deposited data

Results flagged for a closer look

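In 5 of the 80 sets of 4 libraries (10 genes in 8 groups), 1 library stood far from the other 3 by Dixon's criterion for a gap at either end. Chance gives about 1 in 20 such sets. HTA1 in wild type with vehicle on flowcell 2 was at 312.3 CPM in replicate 2, against 407 to 426 in the others. HTA2 in wild type with vehicle on flowcell 1 was at 550.2 CPM in replicate 1, against 426 to 442. HHT1 in the same library was at 693 CPM, against 542 to 568. HTB2 in zuo1 with AZC was at 194 CPM in replicate 4, against 219 to 220.2. HHO1 in zuo1 with vehicle was at 106 CPM in replicate 3, against 89.6 to 89.8.

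The response to AZC differed between a mutant and its wild type for 11 pairs of gene and mutant, by the interaction test in edgeR. For zuo1 minus wild type the log2 differences were 0.62 for HTB2, 0.67 for HHT1, 0.58 for HHF2, 0.35 for HHT2 and 0.34 for HHO1. For not5 minus wild type they were 0.78 for HTA2, 0.68 for HHF1, 0.79 for HHT1, 0.61 for HTA1, 0.76 for HHF2 and 0.51 for HHT2. HHT1, HHT2 and HHF2 passed for both mutants; whether the 2 mutants differ from each other was not tested.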

How the results depend on the processing

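With each library left out in turn, the number of histone genes called ran from 9 to 10 for AZC in wild type on flowcell 1 and 8 to 10 on flowcell 2, 0 to 0 for AZC in zuo1, in not5 and for the difference between the wild-type responses, 7 to 9 for zuo1 against wild type with vehicle, 5 to 7 with AZC, 2 to 7 for the zuo1 difference in response, 10 to 10 for not5 against wild type with vehicle, 5 to 8 with AZC, and 6 to 9 for the not5 difference in response. The zuo1 difference in response gave 3 genes by library totals and 8 under the replicate block or the block within each genotype, against 5. For not5 against wild type with AZC library totals gave 3 against 7, and the block within each genotype gave 10 against 6 for the not5 difference. With the replicate block these results gave 0 for AZC in zuo1 and not5, 9 for zuo1 against wild type with vehicle and 9 for the not5 difference. For zuo1 against wild type with AZC, whose numbers did not pair, it gave 7, adding HTB2 (0.22, edgeR adjusted p 0.0178) and HHT2 (0.17, edgeR adjusted p 0.0321).

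By library totals the sign changed for zuo1 against wild type with vehicle in HTB1 (0.047), HHT2 (0.059) and HTZ1 (0.11), and with AZC in HTB1 (0.15), HTZ1 (0.022) and HHO1 (0.059). For not5 it changed with vehicle in HHF1 (0.068) and HTZ1 (0.10), and with AZC in HTA1 (0.059), HTA2 (0.070), HHT1 (0.41), HHT2 (0.16), HHF2 (0.20), HTZ1 (0.35) and HHO1 (0.14). Summing copies changed it for HHT2 in zuo1 with vehicle (0.37), HTB1 in zuo1 with AZC (0.066) and HHF1 in not5 with AZC (−0.052). The difference between wild-type responses, where 0 genes were called, changed sign for HHF2 (−0.040) and HTZ1 (−0.011) by library totals, HTB1 (0.090) and HHF2 (−0.0021) with copies summed, HTB1 by RLE (0.0036), DESeq2 (0.0036) and limma-voom (0.0013), HHF1 by limma-voom (0.014), and HTB1 (0.0035) and HHF1 (0.012) under either block. HTZ1 in the zuo1 difference stood at 0.0049 by RLE and 0.0039 by DESeq2, and for AZC in not5 HTA2 (0.0078) and HHF1 (0.0053) changed by limma-voom and HHF1 (0.00067) by the block within each genotype. The cause was not tested in any of these.

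Sign changes on leaving out a library were limited to values not called. For AZC in not5 they spanned −0.094 to 0.085 (HTA1), −0.14 to 0.17 (HTA2), −0.18 to 0.010 (HTB1), −0.16 to 0.14 (HTB2), −0.075 to 0.068 (HHF1), −0.17 to 0.019 (HHF2), −0.084 to 0.029 (HHO1) and −0.065 to 0.13 (HHT1). For the wild-type difference they spanned −0.094 to 0.071 (HTB1), −0.023 to 0.19 (HHT1), −0.055 to 0.13 (HHF2), −0.10 to 0.15 (HHF1), −0.14 to 0.054 (HTA1), −0.21 to 0.033 (HTA2) and −0.034 to 0.12 (HTZ1). They spanned −0.24 to 0.042 for HHT1 with AZC in zuo1, −0.11 to 0.025 for HTB1 in zuo1 against wild type with AZC, and −0.054 to 0.073 for HTZ1 in the zuo1 difference. Of the 110 values per gene and comparison, 110 kept direction and call without the filter on low counts, 104 with DESeq2 and 82 by library totals.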
